A study of Danio rerio with 9 samples.

Results

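At the 128-cell stage of the zebrafish (Danio rerio), 3 of the 9 libraries of the study compare newly made RNA with background: 2 libraries of 4-thio-UTP-labelled RNA and 1 library of unlabelled RNA. They were chosen by their stage and label. All came from wild-type embryos of the AB strain. For the labelled libraries, a uridine analogue that polymerases build into new RNA, 4-thio-UTP, was injected into embryos of 1 cell (50 mM, 1 nl each). RNA was then tagged with biotin and captured on streptavidin beads, and the unlabelled RNA was put through those steps too. The labels repeat the injection protocol for the unlabelled sample, which is taken here as having received no analogue; whether it was mock-injected is not given. The labels call the 2 labelled libraries technical replicates, so the p-values measure technical spread only, and the single unlabelled library is assumed to vary like them. Whole embryos were used, so RNA from fewer cells and less RNA per cell cannot be told apart. The values are FPKM, which count fragments per transcript length and per sequenced fragment of the library, and the depth behind them is unknown.

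The fertilised zebrafish egg divides rapidly on RNA stored by the mother, and most nuclear genes are thought to stay silent until the mid-blastula transition. The mitochondrial genome is a separate circular DNA, inherited in many copies from the egg and transcribed by its own polymerase. It encodes core subunits of the respiratory chain, the enzymes that pass electrons to oxygen, and of the ATP synthase, and the remaining subunits are encoded in the nucleus. Labelled RNA against unlabelled RNA at this stage asks which of the 2 genomes, and which genes, already make RNA.

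Of the summed FPKM, the 13 protein genes of the mitochondrial genome held 35.8% and 42.7% in the labelled libraries, against 0.453% in the unlabelled library. The 22 tRNA and 2 rRNA genes that RefSeq lists on that genome are not among them. Leaving out mt-nd4l and mt-atp8, whose values were much the highest of the 13 genes, the shares were 10.9% and 19.0% in the labelled libraries, against 0.145% in the unlabelled one. As FPKM divides by length, they do not say how many reads came from each genome. Nuclear genes with a symbol held 2.02% and 0.678% of the labelled sums and 1.09% of the unlabelled sum. Gene IDs without a symbol held 62.1% and 56.6% of the labelled sums and 98.5% of the unlabelled sum, and whether any of them lies on the mitochondrial genome is not known from the tables used here. At 1 FPKM or more there were 6747 and 5833 genes in the labelled libraries and 6826 in the unlabelled one. Labelled replicate 2 ran below replicate 1 in most genes, and only 16.1% of tested genes were higher in it.

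By limma, 6 of 7697 tested genes were higher in labelled RNA (0.0780%) and 0 were lower (0%), at an adjusted p under 0.05. Before adjustment 72 genes had p under 0.05 and were higher (0.935%), and 134 were lower (1.74%). Of the 6, 1 is a protein gene of the mitochondrial genome and the other 5 have no symbol. At shares this small a call is hardly to be expected in any group below, so nothing is read from a group in which 0 passed. All differences below are on the log2(FPKM + 1) scale, labelled minus unlabelled, less the median over all tested genes unless said otherwise. The limma p-values belong to the difference before this median is taken off. That median was -0.18 on the deposited scale, 0.02 with the libraries rescaled by size factors and 0.47 with 1 nuclear total for all libraries. With replicate number as a block and the unlabelled library as number 1, 783 genes passed as higher (10.2%) and 237 as lower (3.08%). As number 2, 125 passed as higher (1.62%) and 1671 as lower (21.7%). The unlabelled library has 1 value, so these counts hinge on the number it is given.

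All 13 protein genes of the mitochondrial genome lay far above the unlabelled library in both labelled libraries. The ratio of FPKM was between 15.7 and 78.3 in replicate 1 and between 43.6 and 143 in replicate 2. The log2 differences were between 5.48 and 6.65, with a median of 6.11 against 0 for all tested genes. Each of the 13 had an unadjusted p under 0.05, and 1 passed the adjusted threshold. With the replicate block all 13 passed, whichever number the unlabelled library was given.

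Complex I, which takes electrons from NADH, has 7 subunits encoded there. mt-nd4l (ENSDARG00000063916) had 416774 and 531897 FPKM in the labelled libraries, against 5325 FPKM in the unlabelled one. It was the mitochondrial gene that rose in the test, by 6.65 ± 0.88 (SE; limma adjusted p = 0.0333), a call that did not hold with size factors (limma adjusted p = 0.483), a pseudocount of 0.1 (0.140), no filter on low values (0.104) or a robust prior (0.116). MT-ND5 had 31654 and 56295 FPKM in labelled RNA, against 545 FPKM in unlabelled RNA, a difference of 6.46 ± 1.12 (limma adjusted p = 0.171). MT-ND1 had 10650 and 14488.5 FPKM in labelled RNA, against 169.8 FPKM in unlabelled RNA, a difference of 6.37 ± 1.18 (limma adjusted p = 0.217). In these 3 genes the 2 labelled values lay within 1.78-fold of each other and neither came near the unlabelled value. MT-ND2 had 9691 and 9667 FPKM in labelled RNA, against 222 FPKM in unlabelled RNA, the smallest gap between the replicates. MT-ND3 had 13104 and 40000.4 FPKM in labelled RNA, against 304 FPKM in unlabelled RNA, and MT-ND4 had 24743 and 75147 FPKM in labelled RNA, against 675 FPKM in unlabelled RNA. In both, replicate 2 was about as far above replicate 1, by 3.05-fold and 3.04-fold. MT-ND6, the protein gene that lies on the opposite strand to the other 12, had 15049 and 137106 FPKM in labelled RNA, against 956 FPKM in unlabelled RNA. Its replicates differed by 9.11-fold, the widest gap of the 13, and its difference was 5.75 ± 1.55 (limma adjusted p = 0.913). Whether the authors' counting used strand is not given in the sources used here, so reads from the 2 strands cannot be told apart at that gene.

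The single complex III gene, MT-CYB (cytochrome b), had 7068 and 11195 FPKM in labelled RNA, against 200.1 FPKM in unlabelled RNA, and a difference of 5.65 ± 1.19 (limma adjusted p = 0.341). Complex IV, which passes electrons to oxygen, has 3 genes there. MT-CO1, its catalytic subunit, had 13766.5 and 57806 FPKM in labelled RNA, against 717 FPKM in unlabelled RNA, the smallest difference of the 13 at 5.48 ± 1.38 (limma adjusted p = 0.777). MT-CO2 had 8521 and 10013 FPKM in labelled RNA, against 154 FPKM in unlabelled RNA, and MT-CO3 had 11830.3 and 18176 FPKM in labelled RNA, against 240.3 FPKM in unlabelled RNA. In each of the 3 both labelled values were above the unlabelled one, where 17.0% of all tested genes were. The replicates stood apart by 4.20-fold in MT-CO1. Of the 2 ATP synthase genes, mt-atp8 had 274311 and 569119 FPKM in labelled RNA, against 5870.4 FPKM in unlabelled RNA. MT-ATP6, which lies next to it, had 48074 and 78670 FPKM in labelled RNA, against 1064 FPKM in unlabelled RNA. Their differences were 6.25 ± 0.95 (limma adjusted p = 0.0799) and 6.03 ± 1.06 (limma adjusted p = 0.176). Replicate 2 was above replicate 1 in 12 of the 13 genes, against 16.1% of all tested genes, and the exception was MT-ND2.

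**Figure D1:**
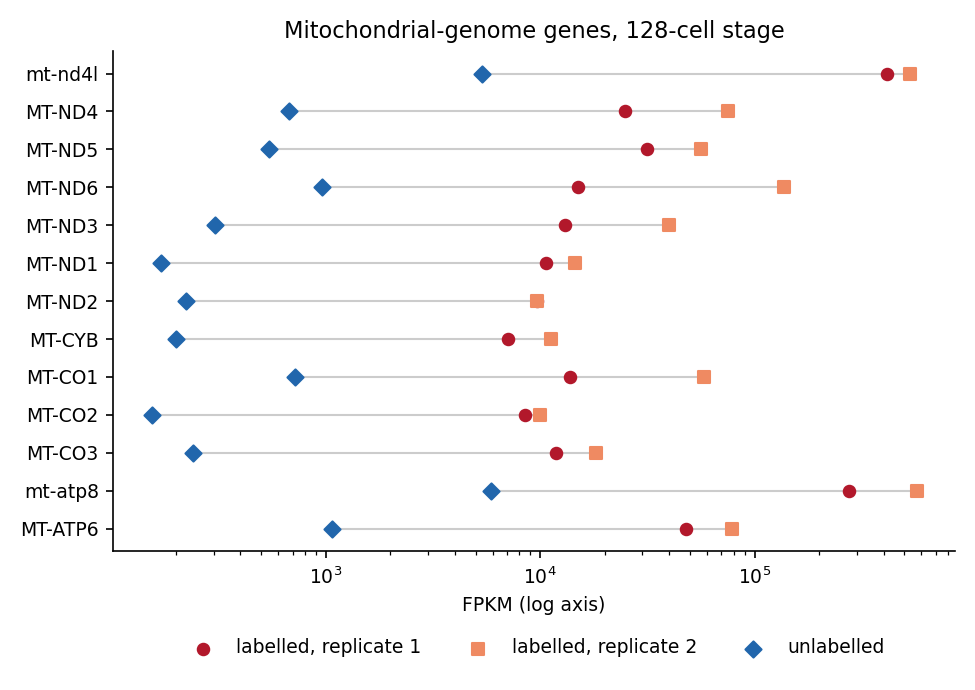
FPKM on a log axis of the 13 mitochondrial-genome genes, grouped by respiratory chain complex, with points for the 2 labelled libraries and the unlabelled library at the 128-cell stage. Every labelled point lies right of the unlabelled point of its gene, by 15.7-fold in MT-ND6 replicate 1 at the least, and mt-nd4l and mt-atp8 stand highest in all 3 libraries.

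Nuclear genes whose products work inside the mitochondrion were taken in 3 groups, each with a median near that of all genes. Of 34 tested genes for the nuclear-encoded subunits of the respiratory chain and ATP synthase, 0 passed by limma, where 0.0780% of all tested genes were higher, and 0 were at least 2-fold above in both replicates, where 1.35% of all were. Their median difference was 0.04, with a range of -1.17 to 1.06. atp5meb, an ATP synthase subunit, had 2.76 and 2.65 FPKM in labelled RNA, against 1.01 FPKM in unlabelled RNA. atp5mc3b, of the ATP synthase ring, had 4.39 and 1.13 FPKM in labelled RNA, against 7.63 FPKM in unlabelled RNA. These 2 genes mark the ends of the range, one with both labelled values above the unlabelled one and the other with both below. Of 19 tested mitochondrial ribosome genes 0 passed, with a median of -0.15, and mrpl39 had 3.86 and 1.02 FPKM in labelled RNA, against 7.31 FPKM in unlabelled RNA. Of 9 tested genes for copying and processing mitochondrial DNA and RNA 0 passed, with a median of -0.03. SSBP1, which coats single-stranded mitochondrial DNA, had 1.66 and 1.29 FPKM in labelled RNA, against 0.229 FPKM in unlabelled RNA. None of these 3 groups held a gene with an unadjusted p under 0.05.

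**Figure D2:**
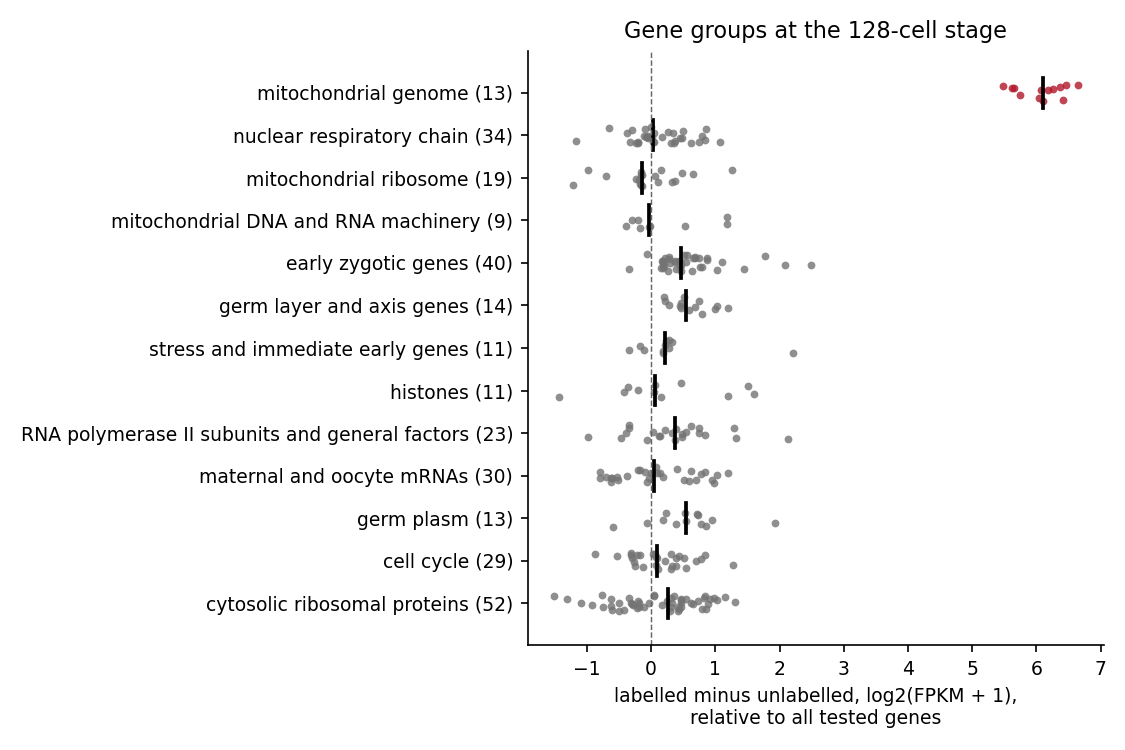
Difference between labelled and unlabelled RNA at the 128-cell stage for the tested members of 13 gene groups, on the log2(FPKM + 1) scale less the median over all tested genes; each point is a gene, the black bar is the group's median and the number tested is in brackets. The 13 mitochondrial genes lie between 5.48 and 6.65, and the medians of the other groups shown lie between -0.15 and 0.55.

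The 5 other genes that rose have no symbol in the tables used here and were listed at 0 in the unlabelled library. ENSDARG00000080151 had 58965 and 44914 FPKM in the labelled libraries (limma adjusted p = 0.00168). ENSDARG00000081280 had 9238 and 5273 FPKM (limma adjusted p = 0.00523), and ENSDARG00000083118 had 6006.5 and 2837 FPKM (limma adjusted p = 0.0063). ENSDARG00000080630 had 4122 and 1861 FPKM (limma adjusted p = 0.0297) and ENSDARG00000083462 had 3533 and 1380 FPKM (limma adjusted p = 0.0333). In each of the 5 both labelled values were at 1380 FPKM or more, and replicate 1 was the higher. In the unlabelled libraries of the 256-cell and 512-cell stages, 2 of the 5 stayed at 0 and the other 3 had between 119.9 and 172.6 FPKM in at least 1 of them, so a 0 there need not mean that no RNA was carried over. With a pseudocount of 5, 4 of the 5 calls were lost, at limma adjusted p-values of 0.206 for ENSDARG00000081280, 0.272 for ENSDARG00000083118, 0.503 for ENSDARG00000080630 and 0.535 for ENSDARG00000083462. Without a filter on low values ENSDARG00000080630 and ENSDARG00000083462 did not pass (limma adjusted p = 0.0514 and 0.0716). No fold is given against 0.

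These 5 belong to a run of 28 unsymbolled IDs with neighbouring ID numbers, 80128 to 83760, a range set after their values were seen. Among the named IDs in that range, 456 of 499 (91.4%) carry the symbol of an RNA gene, which names none of the 28. Of the 28, 16 were at least 2-fold above the unlabelled library in both replicates, 10 of these with 0 in it, against 1.35% of all tested genes. As the range was drawn around IDs already seen to be high, nothing is read from that count. The 16 IDs held 45.3% and 5.62% of the labelled FPKM sums, against 0.101% of the unlabelled sum. The 2 labelled libraries differed widely in these IDs: the ratio of replicate 2 to replicate 1 had a median of 0.247 and went down to 0.00683. Of the 16, 1 was higher in replicate 2, against 12 of the 13 mitochondrial protein genes and 16.1% of all tested genes. Whether any of the 16 lies on the mitochondrial genome is not known here.

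A wider set is given by size alone, with no test. In both labelled libraries 104 tested genes (1.35%) were at least 2-fold above the unlabelled library in FPKM + 1, and 267 (3.47%) were at least 2-fold below. Of these, 28.0% were above as deposited, and 66.1% with size factors, where 181 genes were above and 93 below. Of the 104 genes 102 were still above with size factors. The 104 are the 13 mitochondrial genes, 25 nuclear genes with a symbol, the 16 IDs of the run above and 50 other IDs without a symbol. The 181 with size factors are the 13 mitochondrial genes, 96 nuclear genes with a symbol, 23 of the 25 among them, and 72 IDs without a symbol. At a 4-fold difference 67 genes remained (0.870%), among them the 13 mitochondrial genes and none of the 25. Against the highest of the 3 unlabelled libraries, 90 of the 104 were still 2-fold above, with all 13 mitochondrial genes, all 16 IDs, 40 of the 50 and 21 of the 25; the other 4 of the 25 were klf17, TAF10, MDH1 and malsu1. Just inside the threshold among genes with a symbol were MDH1 and TAF13, at 2.004-fold and 2.03-fold in the lower replicate, and just outside were RTKN2 and CCT6B, at 1.997-fold and 1.99-fold.

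**Figure D3:**
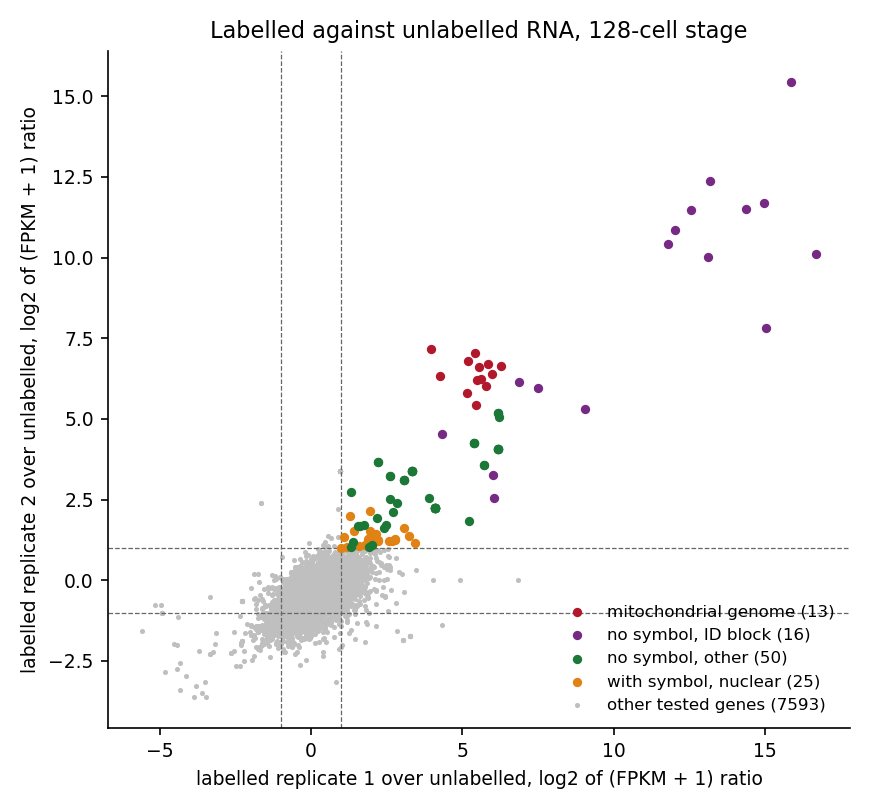
Log2 ratio of FPKM + 1 of labelled replicate 1 (x axis) and replicate 2 (y axis) over the unlabelled library at the 128-cell stage, for 7697 tested genes, with dashed lines at 2-fold; colours mark the 104 genes above 2-fold in both. The 13 mitochondrial genes form a group apart, the 10 unsymbolled IDs farthest up have 0 in the unlabelled library so that their place depends on the pseudocount, and none of the 25 nuclear genes with a symbol is 4-fold above in both replicates.

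None of the 25 nuclear genes with a symbol passed the test, and the largest of them had adjusted p-values of 1. NHP2, a protein of the H/ACA small nucleolar particles that modify ribosomal RNA, had 20.3 and 23.3 FPKM in labelled RNA, against 4.49 FPKM in unlabelled RNA. Its 2 replicates were close, and its difference was 2.23 ± 0.85 (SE; limma adjusted p = 1). STYX, a phosphatase relative without activity, had 128 and 26.1 FPKM in labelled RNA, against 11.0 FPKM in unlabelled RNA, and a difference of 2.48 ± 1.53. btg3, of a family of anti-proliferative proteins, had 78.7 and 26.8 FPKM in labelled RNA, against 10.7 FPKM in unlabelled RNA. In both, replicate 1 was well above replicate 2. TFDP1, the partner of the cell cycle factors E2F, had 10.3 and 5.94 FPKM in labelled RNA, against 1.54 FPKM in unlabelled RNA. EIF1B, a translation start factor, had 114 and 58.5 FPKM in labelled RNA, against 24.1 FPKM in unlabelled RNA. CHTOP, which helps to export mRNA, had 82.1 and 40.5 FPKM in labelled RNA, against 16.8 FPKM in unlabelled RNA. DDIT4, an inhibitor of the growth kinase mTORC1, had 44.9 and 29.3 FPKM in labelled RNA, against 11.0 FPKM in unlabelled RNA. These 4 genes had differences between 1.82 and 1.98, and replicate 1 was the higher in each.

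The others with 5 FPKM or more in both labelled libraries were RPSA2, APH1B, RBM8A and MDH1, at differences between 1.19 and 1.75. RBM8A, a core protein of the exon junction complex, had 29.4 and 17.7 FPKM in labelled RNA, against 7.83 FPKM in unlabelled RNA. APH1B, a gamma-secretase subunit, had 59.5 and 33.6 FPKM in labelled RNA, against 15.6 FPKM in unlabelled RNA. MDH1, the cytosolic malate dehydrogenase, had 10.1 FPKM in each labelled library, against 4.53 FPKM in unlabelled RNA.

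The nuclear genes at lower levels include regulators known from the first wave of zygotic transcription. mxtx2, a homeobox gene that specifies the yolk syncytial layer, had 10.0 and 2.08 FPKM in labelled RNA, against 0.183 FPKM in unlabelled RNA. klf17, a Krüppel-like factor of the outer enveloping layer, had 6.84 and 2.09 FPKM in labelled RNA, against 0.323 FPKM in unlabelled RNA. irx7, an Iroquois homeobox gene, had 4.18 and 1.87 FPKM in labelled RNA, against 0.285 FPKM in unlabelled RNA. All 3 had labelled values of a few FPKM in both libraries and an unlabelled value under 1, at differences of 2.48 ± 1.48, 2.08 ± 1.18 and 1.77 ± 0.96 (limma adjusted p = 1 for each). GADD45B, a growth arrest gene induced by stress, had 6.86 and 1.74 FPKM in labelled RNA, against 0.138 FPKM in unlabelled RNA. FGF20, a fibroblast growth factor, had 2.89 and 1.91 FPKM in labelled RNA and was listed at 0 in unlabelled RNA. TAF10 and TAF13 encode subunits of TFIID, the factor that binds the core promoter. TAF10 had 5.36 and 1.32 FPKM in labelled RNA and was listed at 0 in unlabelled RNA, and TAF13 had 3.35 and 2.86 FPKM in labelled RNA, against 0.905 FPKM in unlabelled RNA. In these genes replicate 1 was the higher; that both labelled values lay above the unlabelled one is fixed by how the 25 were chosen.

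Other members of the 25 had values of a few FPKM. malsu1, an assembly factor of the mitochondrial ribosome, had 3.05 and 5.49 FPKM in labelled RNA, against 0.648 FPKM in unlabelled RNA. TBCB, a tubulin folding cofactor, had 3.62 and 4.603 FPKM in labelled RNA, against 1.19 FPKM in unlabelled RNA. These 2 were among the 5 with the higher value in replicate 2. tmsb4x, a thymosin that binds actin monomers, had 5.54 and 2.83 FPKM in labelled RNA, against 0.606 FPKM in unlabelled RNA. MRGBP, of the NuA4 histone acetyltransferase complex, had 9.95 and 4.74 FPKM in labelled RNA, against 1.704 FPKM in unlabelled RNA. In each of these 4 genes the unlabelled value was below 2 FPKM.

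**Figure D4:**
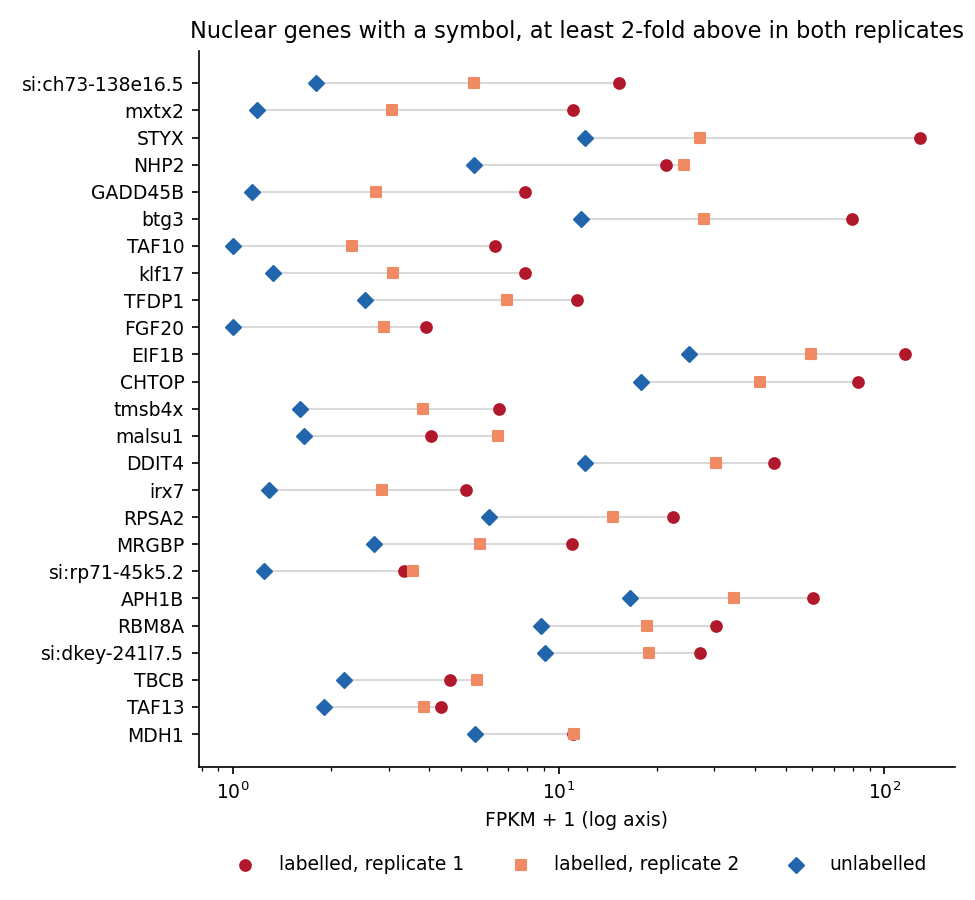
FPKM + 1 on a log axis of the 25 nuclear genes with a symbol that were at least 2-fold above the unlabelled library in both labelled libraries at the 128-cell stage, ordered by the size of the difference. In all but 5 genes replicate 1 lies right of replicate 2, and the levels run from a few FPKM (mxtx2, FGF20) to 128 FPKM (STYX replicate 1).

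As a list, the early zygotic genes had low values at this stage. Of 64 listed symbols 42 are in the table and 40 were tested. By limma 0 of the 40 passed, where 0.0780% of all tested genes were higher, and 0 had an unadjusted p under 0.05. With the replicate block 6 passed with number 1, where 10.2% of all tested genes did, and 3 with number 2, where 1.62% did. Both labelled values were above the unlabelled one in 26 of the 40, in 7 of 13 tested germ plasm genes and in 17.0% of all tested genes. In 17 of the 40 the unlabelled library was at 0, where any trace in labelled RNA counts as above. Nothing is read from that count of 26. In 26 of the 40, which passed the filter on low values through the later stages, both labelled values were under 1 FPKM. The 3 genes at least 2-fold above were mxtx2, klf17 and irx7. The median difference was 0.46, and 0.54 without the 17, and it moved between 0.14 and 1.36 with a pseudocount of 5 and 0.1. A gene at 0 in all 3 libraries stands at 0.18 on this scale, which is the shift of all genes. znf1089, a zinc-finger gene, had 1.62 and 2.18 FPKM in labelled RNA, against 0.532 FPKM in unlabelled RNA. Among the 14 tested genes of germ layers and body axes 0 passed, with a median of 0.55, and 9 were listed at 0 in unlabelled RNA. In 9 of the 14 both labelled values were under 1 FPKM. tdgf1, the Nodal co-receptor, had 8.31 and 4.48 FPKM in labelled RNA, against 2.54 FPKM in unlabelled RNA, and dkk1b, a Wnt inhibitor, had 1.14 and 0.511 FPKM in labelled RNA and was listed at 0 in unlabelled RNA. The enveloping layer list had 4 tested members, and limma called none of them. Their differences ran from -0.21 up to 2.08 for klf17, and the middle of the 4 lay at 0.87 (median). GATA3, also on that list, had 0.710 and 0.502 FPKM in labelled RNA and was listed at 0 in unlabelled RNA.

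RNAs that the egg stores were present in labelled and unlabelled RNA. nanog, one of the maternal activators of the zygotic genome, had 210.3 and 172 FPKM in labelled RNA, against 225 FPKM in unlabelled RNA. pou5f3, its partner, had 46.7 and 24.2 FPKM in labelled RNA, against 39.4 FPKM in unlabelled RNA, and sox19b had 19.4 and 9.82 FPKM in labelled RNA, against 10.6 FPKM in unlabelled RNA. In all 3 the unlabelled value lay between or above the labelled ones, and none passed. Of 30 tested maternal and oocyte mRNAs 0 passed, where 0.0780% of all tested genes were higher, and the median was 0.04. MOS, the oocyte kinase, had 3.14 and 1.75 FPKM in labelled RNA, against 5.68 FPKM in unlabelled RNA. Among 29 cell cycle genes 0 passed and the median was 0.09, and GMNN (geminin, a replication licensing inhibitor) had 136 and 58.8 FPKM in labelled RNA, against 41.7 FPKM in unlabelled RNA. Among 13 germ plasm genes 0 passed and the median was 0.53; DDX4, the germ-line helicase vasa, had 58.7 and 12.8 FPKM in labelled RNA, against 7.58 FPKM in unlabelled RNA.

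Of 52 cytosolic ribosomal protein genes 0 passed, where 0.0780% of all tested genes were higher, and the median was 0.27. At least 2-fold above were 0, against 1.35% of all tested genes, and 3 were at least 2-fold below, against 3.47%. RPSA2, which was at least 2-fold above in both replicates, is not on that list. RPL28 had 1.32 and 2.5 FPKM in labelled RNA, against 8.23 FPKM in unlabelled RNA. Of 23 genes for RNA polymerase II and its general factors 0 passed, with a median of 0.37, and TAF10 and TAF13 were the 2 at least 2-fold above, against 1.35% of all tested genes. TAF9, another TFIID subunit, was 2-fold below, as 3.47% of all genes were, with 5.84 and 5.92 FPKM in labelled RNA, against 14.5 FPKM in unlabelled RNA. POLR2G, a subunit of the polymerase, had 5.02 and 2.78 FPKM in labelled RNA, against 1.17 FPKM in unlabelled RNA. Of 11 histone genes 0 passed, with a median of 0.06, and they stood on both sides. h3f3a, a gene of the variant histone H3.3, had 49.6 and 20.2 FPKM in labelled RNA, against 12.1 FPKM in unlabelled RNA, and H3-3B had 2.92 and 2.08 FPKM in labelled RNA, against 9.72 FPKM in unlabelled RNA. Of 11 stress genes 0 passed, with a median of 0.22. actc1a, the muscle actin and the one tested marker of differentiated tissue, was listed at 0 in all 3 libraries. No symbol of the ovarian follicle cell list or of the miRNA list is in the table.

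Of the 267 genes 2-fold below, 110 have a symbol that is not a clone name and 5 FPKM or more in unlabelled RNA, and the 8 farthest below among these did not pass either. Metazoa_SRP, the RNA of the signal recognition particle, had 2.51 and 32.8 FPKM in labelled RNA, against 72.8 FPKM in unlabelled RNA, a difference of -2.58 ± 1.43 (limma adjusted p = 1). CLASP1, a microtubule-stabilising protein, had 4.21 and 3.17 FPKM in labelled RNA, against 25.2 FPKM in unlabelled RNA, and kdf1a, a keratinocyte differentiation factor, had 5.57 and 5.63 FPKM in labelled RNA, against 29.6 FPKM in unlabelled RNA. LYST, a regulator of lysosomes, had 1.27 and 1.82 FPKM in labelled RNA, against 10.4 FPKM in unlabelled RNA, a difference of -1.98 ± 0.57 (limma adjusted p = 0.777). UNK, GBF1, ARFGAP2 and YIF1B had differences between -2.03 and -1.74, and the last 3 act in traffic through the Golgi. Of the 267 genes at least 2-fold below, 31 were also below at the 256-cell stage and 41 at the 512-cell stage, where 0.650% and 0.922% of all tested genes were, and 27 were 2-fold below the lowest of the 3 unlabelled libraries.

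Set beside the same comparison at the later stages, which use other libraries, most genes above background at 128 cells recurred. Those libraries are not fully independent, as replicate deviations at 128-cell correlated with those at 256-cell (0.734) and 512-cell (0.658). Of the 104 IDs 28 fall in sets with identical values, so that the 104 count for 88 distinct values, some of them nearly identical. At least 2-fold above in both replicates were 104 genes at 128-cell, 428 at 256-cell (5.56%) and 1365 at 512-cell (17.7%). The median difference of all tested genes moved with them, at -0.18, 0.43 and 0.73 on the deposited scale, and with size factors, an alternative for the later stages chosen after seeing the data, the counts were 181, 390 and 910. Of the 104 genes 98 (94.2%) were also above at 256-cell, where they are 22.9% of the list, and 102 (98.1%) at 512-cell, where they are 7.47% of the list. All 3 lists share 97 genes. With size factors the recurrence was less complete: of the 181 genes above at 128-cell, 130 were also above at 256-cell and 142 at 512-cell. By limma 6, 87 (1.13%) and 286 (3.72%) genes were higher in labelled RNA at the 3 stages in order.

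The 104 genes can be followed from 128 to 512 cells within labelled RNA by kind. All tested genes had medians of 1.02 and 0.862 of their 128-cell value (in FPKM + 1, as the medians below) at the 512-cell stage in replicates 1 and 2, and 41.1% were lower in both. The mitochondrial genes had medians of 0.759 and 0.573, and 10 of the 13 were lower in both. Their share of the FPKM sum was 35.8% and 42.7% at 128-cell, then 22.2% and 17.7%, then 19.5% and 12.8% at 512-cell. In unlabelled RNA it was 0.453%, 0.367% and 0.456%. Their median difference from unlabelled RNA was 6.11 at 128-cell, 5.95 at 256-cell and 5.87 at 512-cell. Before the median of all tested genes was taken off, it was 5.93, 6.37 and 6.60, so the direction over the stages depends on that step. The comparison of the 128-cell difference with the 512-cell one gave no call among the mitochondrial genes, and no unadjusted p under 0.05. The 16 unsymbolled IDs of the numbered run had medians of 0.631 and 0.653 and 13 lower in both replicates, beside the same 41.1%.

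The 50 other IDs without a symbol had medians of 18.3 and 35.1 times their 128-cell value, and 48 of them were at least 4-fold higher in both replicates, against 3.68% of all tested genes. Of the 50, 28 fall in sets with identical values, so that the 50 count for 34 distinct values. Some of the 34 are nearly identical, so fewer separate genes may stand behind them. For example, ENSDARG00000086081, ENSDARG00000087171 and ENSDARG00000087964 each stood at 8.99 times their 128-cell value in replicate 1. In replicate 2 they stood at 32.03, 32.01 and 32.07 times. One set of 3 IDs, with ENSDARG00000086482 among them, had 3009.6 and 3057 FPKM in labelled RNA at 128-cell, against 355 FPKM in unlabelled RNA. At 512-cell it had 69455 and 136272 FPKM in labelled RNA, against 296 FPKM in unlabelled RNA.

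Of the 25 nuclear genes with a symbol, 7 were at least 4-fold higher at 512-cell in both replicates, against 3.68% of all tested genes, and 8 were lower in both, against 41.1%. mxtx2 had 10.0 and 2.08 FPKM in labelled RNA at 128-cell, 229 and 27.7 FPKM at 256-cell and 574 and 84.9 FPKM at 512-cell. irx7 had 4.18 and 1.87, 92.9 and 33.2, and 240.02 and 109 FPKM at the 3 stages, and GADD45B had 6.86 and 1.74, 64.5 and 24.0, and 127 and 62.9 FPKM. klf17 had 6.84 and 2.09, 183 and 43.3, and 375 and 114 FPKM, and FGF20 had 2.89 and 1.91, 11.6 and 7.61, and 16.2 and 11.96 FPKM while it was listed at 0 in all 3 unlabelled libraries. In both replicates the labelled values of these genes were higher at each later stage. STYX had 128 and 26.1 FPKM at 128-cell, 114 and 15.8 FPKM at 256-cell and 87.5 and 13.5 FPKM at 512-cell, and its unlabelled values were 11.0, 6.27 and 3.90 FPKM. EIF1B had 114 and 58.5 FPKM at 128-cell and 96.4 and 39.0 FPKM at 512-cell, with 24.1 and 5.36 FPKM in unlabelled RNA. For these 2 genes both labelled and unlabelled values were lower at the later stage. The median FPKM over all IDs in the unlabelled libraries was lower too, at 2.52, 1.35 and 0.836 at the 3 stages in order. In labelled RNA that median was 2.59 and 1.62 at 128-cell and 3.10 and 1.42 at 512-cell. Whether the 2 genes differ from that general shift was not tested.

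**Figure D5:**
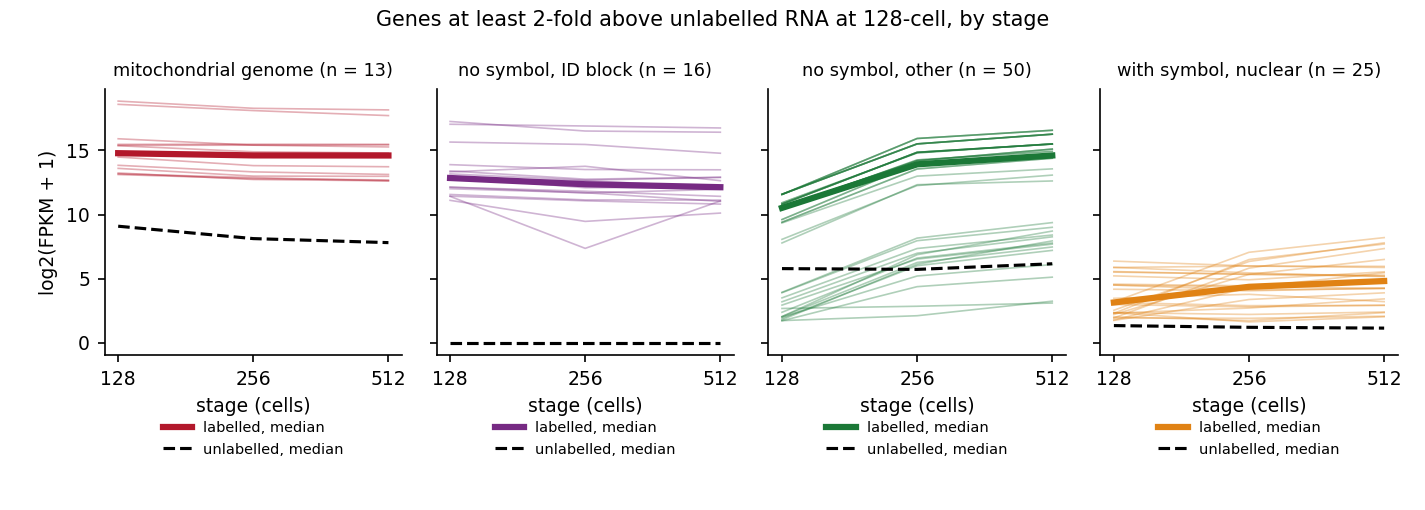
Log2(FPKM + 1) at the 128-cell, 256-cell and 512-cell stages of the 104 genes at least 2-fold above unlabelled RNA at 128-cell, in 4 panels by kind; thin lines are single genes as the mean of the 2 labelled libraries, the thick line is their median and the dashed line is the median of the unlabelled libraries. The mitochondrial genes and the numbered run of IDs are level or lower at later stages. At 512-cell 48 of the 50 other IDs are at least 4-fold higher in both replicates. Of the 25 symbol genes, 7 are at least 4-fold higher and 8 lower in both replicates at that stage.

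A test of the change in the labelling difference itself found no gene past the adjusted threshold by limma, either between 128-cell and 256-cell or between 128-cell and 512-cell. Against 512-cell, 563 genes had a smaller difference at 128-cell (7.31%) and 5 a larger one (0.0650%) at an unadjusted p under 0.05. Against 256-cell these counts were 130 (1.69%) and 3 (0.0390%). The median change of all tested genes was -0.94 against 512-cell and -0.64 against 256-cell on the deposited scale. With the replicate block 2922 of the 7697 tested genes passed against 512-cell and 205 against 256-cell, for either number of the unlabelled libraries. These counts are not split by direction here and include the median change of all genes. With size factors, where the median changes were 0.02 and 0.00, 134 passed against 512-cell, 131 with a smaller and 3 with a larger difference at 128-cell, and 0 against 256-cell. The median difference of the 40 early zygotic genes from unlabelled RNA was 0.46 at 128-cell, 2.27 at 256-cell and 3.61 at 512-cell, and 0, 6 and 28 of them passed; as 26 of the 40 entered the test through the later stages, these values are a description only.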

How the data were processed

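RNA of AB zebrafish embryos was measured by sequencing amplified cDNA (15 PCR cycles, per the labels' protocols). The deposited values are FPKM per library and gene, per the file headers; the submitters' processing notes name CASAVA 1.7, TopHat 1.3.3, Cufflinks 2.0.2 and the build Zv9. The annotation version, strand use, and the treatment of reads with several matches are not given in the sources used here. The 2 deposited tables of pooled stage values were not used. FPKM carries no read counts, so depth is unknown and no counting interval is given. Near-identical genes may share reads: 94 of the 8969 IDs fall in 29 sets with identical values. Symbols were matched for 7028 IDs (78.4%) and are printed in the case they carry; mitochondrial gene neighbours follow RefSeq.

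Genes with 1 FPKM or more in at least 2 of the 9 libraries (7697) were tested as log2(FPKM + 1), a pseudocount of 1. limma 3.58.1 in R 4.3.3 fitted group means of all 9 libraries with a mean-variance trend; two-sided p-values were adjusted by Benjamini-Hochberg across the 7697 genes, with 0.05 as the threshold. The procedure was tested on simulated data with independent noise in each library. Those data lack the correlation of replicate deviations given below, so nothing is read from that test. Single genes named are all mitochondrial protein genes, called genes, up to 12 and 8 nuclear genes farthest above and below (2-fold in both replicates, 5 FPKM), up to 4 list members with the smallest adjusted p, and others whose values were seen first. The members and lists were chosen with earlier results of these data known.

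Deviations of labelled replicates from their stage mean correlated across genes, by number, at 0.734 (128-cell and 256-cell), 0.762 (256-cell and 512-cell) and 0.658 (128-cell and 512-cell), and at 0.736, 0.743 and 0.664 after size factors. What a shared number stands for is not given, and the unlabelled libraries carry at most number 1. Blocked fits are therefore given for both possible numbers.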

Additional observations from a re-analysis of the deposited data

How the results depend on the processing

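The 6 genes higher at 128-cell became 8 with a pseudocount of 0.1, 3 with a pseudocount of 5, 3 without a filter, 10 at 5 FPKM, 5 with size factors, 28 with 1 nuclear total, 19 with the 3 libraries at 128-cell alone and 23 without the trend, and between 11 and 21 when a labelled library was left out. The 0 genes lower became 11 with the 3 libraries alone and between 0 and 8 with a library left out. Of the 13 mitochondrial genes 1 passed as reported, 0 with a pseudocount of 0.1, without a filter and with size factors, 2 with a pseudocount of 5, at 5 FPKM and with the 3 libraries alone, 11 without the trend, 13 with 1 nuclear total, and between 2 and 8 with a library left out. Without labelled 128-cell replicate 1 they numbered 8, and without replicate 2 they numbered 4. Their median stayed between 5.98 and 6.42 under these settings and moved between 5.46 (without replicate 2) and 6.84 (without replicate 1). Early zygotic genes passed under the replicate block only. mt-nd4l lost its call with a pseudocount of 0.1 (limma adjusted p = 0.140), without a filter (0.104) and with size factors (0.483).

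With the replicate block (unlabelled library as number 1) 783 genes were higher, 237 lower, 13 mitochondrial and 6 early zygotic genes passed, the mitochondrial median was 5.53, and 205 and 2922 genes differed from the 256-cell and 512-cell contrasts. The following were chosen after seeing the data. With number 2 these values were 125, 1671, 13, 3, 6.84, 205 and 2922. Counting IDs of identical value once gave 7 higher genes with 2 mitochondrial; keeping only IDs with a symbol gave 11, all mitochondrial; a robust prior gave 5 with 0 mitochondrial.

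The 0 genes differing from the 256-cell contrast became 8 with a pseudocount of 0.1, 3 without the trend and between 0 and 6 with a library left out; the 0 differing from the 512-cell contrast became 6, 0 and between 0 and 226, and 134 with size factors. The largest of these, 226, came without labelled 512-cell replicate 2. The 104 genes 2-fold above became 67 at 4-fold, 1306 at any fold, 218 with a pseudocount of 0.1, 181 with size factors, 102 at 5 FPKM, 90 against the highest unlabelled library and 38 among IDs with a symbol, and between 132 (without replicate 1) and 747 (without replicate 2). The 267 below became 23, 3433, 561, 93, 142, 27 against the lowest unlabelled library and 162, and between 404 (without replicate 2) and 1102 (without replicate 1). The mitochondrial share without mt-nd4l and mt-atp8 was 10.9% and 19.0% in the labelled libraries and 0.145% in the unlabelled one. None of the mitochondrial genes, the called genes or the named nuclear genes farthest above and below changed direction under any of these settings. Those nuclear genes were picked as 2-fold above or below in both replicates. Their direction was largely fixed by that choice, and nothing is read from it. The named list members were not part of that check, and the causes of the moves were not tested. The unlabelled library could not be left out, and with 1 such library and unknown depth its 0 values set no limit.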
